A study of Mus musculus with 8 samples.

Results

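The MHC class I and immunoproteasome genes described here are 10 genes chosen by symbol, H2-K1, H2-D1, B2m, Tap1, Tap2, Tapbp, Psmb8, Psmb9, Psmb10 and Nlrc5, out of 30153 gene identifiers in the deposited table. All 10 had a row and all 10 reached the mean of 1 TPM (a read share normalized for transcript length and scaled to a fixed total per library) that the test required. On GRCm38 with GENCODE M21, 7 of them lie on chromosome 17, in or near the MHC: Tapbp (33915899 to 33929292), H2-K1 (33996017 to 34000347), Psmb9 (34181987 to 34187764), Tap1 (34187553 to 34197225), Psmb8 (34197721 to 34201454), Tap2 (34203527 to 34216321) and H2-D1 (35262730 to 35267499). B2m lies on chromosome 2 (122147686 to 122153083), and Nlrc5 (94434356 to 94527272) and Psmb10 (105935735 to 105938444) on chromosome 8. RNA came from kidneys of 4 aged and 4 adult C57/BL6 mice, each giving 1 library. Both groups are labelled Haplotype-II, and the series' title speaks of hypertensive mice that overexpress a human angiotensin receptor. Both groups also ate a western diet, so adult controls carry the transgene and the diet too. The labels give no exact age and no sex, and say nothing of the promoter that drives the transgene.

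MHC class I molecules show peptides from inside the cell to CD8 T cells and natural killer cells. A heavy chain, H2-K or H2-D in C57BL/6 mice, pairs with beta-2-microglobulin in the endoplasmic reticulum. The proteasome cuts the peptides, the TAP transporter carries them across the membrane, and tapasin holds the empty heavy chain at the transporter until a peptide fits. Interferon gamma swaps the catalytic proteasome subunits for the inducible Psmb8, Psmb9 and Psmb10, and the nuclear protein NLRC5 switches class I genes on. In kidney, class I is found on endothelium, leukocytes and tubule cells.

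The start regions of the class I genes are shown because heavy chains, B2m, Tap1 and Psmb9 are known to share regulatory boxes there. RefSeq windows on GRCm38.p6, from 250 bases before to 50 bases after the annotated start, were found for 8 of the 10 members, with Tap2 and Nlrc5 not matched. Capitals mark matches on either strand to GAANNGAAA (an interferon regulatory factor pattern), TTCNNNGAA (the STAT pattern), GGGNNTTCC (a kappaB pattern), TGACG (the core of the X2 box) and CCAAT (the Y box). The windows are chr17:34000298-34000597 on the minus strand for H2-K1, chr17:35262844-35263143 on the plus strand for H2-D1, chr2:122147437-122147736 on the plus strand for B2m and chr17:34187306-34187605 on the plus strand for Tap1.
H2-K1: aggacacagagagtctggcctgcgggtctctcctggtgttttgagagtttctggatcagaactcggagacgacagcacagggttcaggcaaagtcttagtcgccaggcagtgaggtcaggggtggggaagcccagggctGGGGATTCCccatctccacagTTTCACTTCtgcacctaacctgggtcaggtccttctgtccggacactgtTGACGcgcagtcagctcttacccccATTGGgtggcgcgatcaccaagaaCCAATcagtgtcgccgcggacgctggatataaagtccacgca
H2-D1: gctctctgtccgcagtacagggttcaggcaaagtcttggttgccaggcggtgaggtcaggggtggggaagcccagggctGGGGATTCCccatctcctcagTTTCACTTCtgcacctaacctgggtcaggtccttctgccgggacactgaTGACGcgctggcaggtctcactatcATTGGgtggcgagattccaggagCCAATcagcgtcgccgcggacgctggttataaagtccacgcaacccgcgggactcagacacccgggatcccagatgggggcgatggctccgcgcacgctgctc
B2m: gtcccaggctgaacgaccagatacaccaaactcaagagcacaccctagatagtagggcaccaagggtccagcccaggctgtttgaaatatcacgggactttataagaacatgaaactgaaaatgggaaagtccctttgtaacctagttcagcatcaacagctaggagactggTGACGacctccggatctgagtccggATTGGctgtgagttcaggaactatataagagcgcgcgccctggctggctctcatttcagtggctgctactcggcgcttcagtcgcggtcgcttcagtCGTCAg
Tap1: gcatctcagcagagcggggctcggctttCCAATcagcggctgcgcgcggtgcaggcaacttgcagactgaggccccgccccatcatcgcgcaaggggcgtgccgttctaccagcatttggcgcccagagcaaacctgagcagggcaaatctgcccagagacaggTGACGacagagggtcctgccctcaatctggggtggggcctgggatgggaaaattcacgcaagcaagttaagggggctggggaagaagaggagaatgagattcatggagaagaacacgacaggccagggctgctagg
The H2-K1 and H2-D1 windows had the same order of capitals, kappaB, interferon regulatory factor, X2 and then 2 Y boxes, and were identical at 73.3% of 240 bases aligned without gaps. Counting the annotated start as 0, the kappaB match began at -111 in H2-K1 and at -171 in H2-D1. H2-K1 had another RefSeq window with a different start, not printed or counted here, in which this match began at -125. B2m and Tap1 had X2 and Y matches and no match to the other 3 patterns as spelled. In B2m the Y match began at -53, after an X2 match at -78, and another X2 match began at 44. In Tap1 the Y match began at -222, before the X2 match at -86, an order unlike that of the heavy chains. Those patterns fix the spacing, and the B2m window holds gaaactgaaa and gggaaagtccc, which differ from them in spacing. The lack of a match therefore does not show that such a box is absent. Psmb9 lies head to head with Tap1, and its window shared 275 bases with the one printed, so both hold the same X2 and Y letters. The X2 pattern was in 5 of the 8 windows, against 20.8% of 32851 windows of this length, and the Y pattern in 6 of 8, against 37.4%. The interferon regulatory factor and kappaB patterns were in 2 of 8 each, H2-K1 and H2-D1, against 7.52% and 5.82%, and the STAT pattern in 1, Psmb8, against 8.30%. Matches of different patterns did not overlap in these 8 windows, and a match is a run of letters, not a measured binding site.

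The columns totalled between 924798 and 950974 TPM, and TPM keeps no read depth, so the counting error of each value is unknown. Aged and adult libraries were compared with limma on log2(TPM + 1) over 11796 genes. No gene passed a Benjamini-Hochberg adjusted p of 0.05, and 400 had an unadjusted p under it, 75 higher and 325 lower in aged kidneys. Across all genes the log2 fold change had a median of -0.11, and 65% of genes were negative, so fold changes of members are to be read against that shift. Summed markers of proximal tubule, of loop, distal tubule and collecting duct, and of podocytes were above 0 in all libraries. In bulk kidney, fewer cells of a type and less RNA per cell cannot be told apart. Y-linked transcripts, which the labels do not mention, were present in replicates 3 and 4 of both groups (summed 34.7 to 50.6 TPM) and near 0 in replicates 1 and 2 (0.485 to 2.30 TPM).

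None of the 10 members passed the test between aged and adult kidneys, where 0% of all genes passed. Of the members 9 had a negative log2 fold change, where 65% of all genes had one, and Nlrc5 a positive one. The age groups overlapped for all 10, while they did not overlap for 2.46% of all genes. The median over the members was -0.31, against -0.11 over all genes tested. With size factors 9 members were negative, as were 52.6% of all genes, and the median was -0.21, against -0.02 for all genes. With mitochondrial genes removed and TPM rescaled 6 were negative, as were 30.4% of all genes, and the median was -0.07, against 0.15 for all genes. The adjusted p was 1.00 for every member (limma, Benjamini-Hochberg over all genes).

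**Figure D1:**
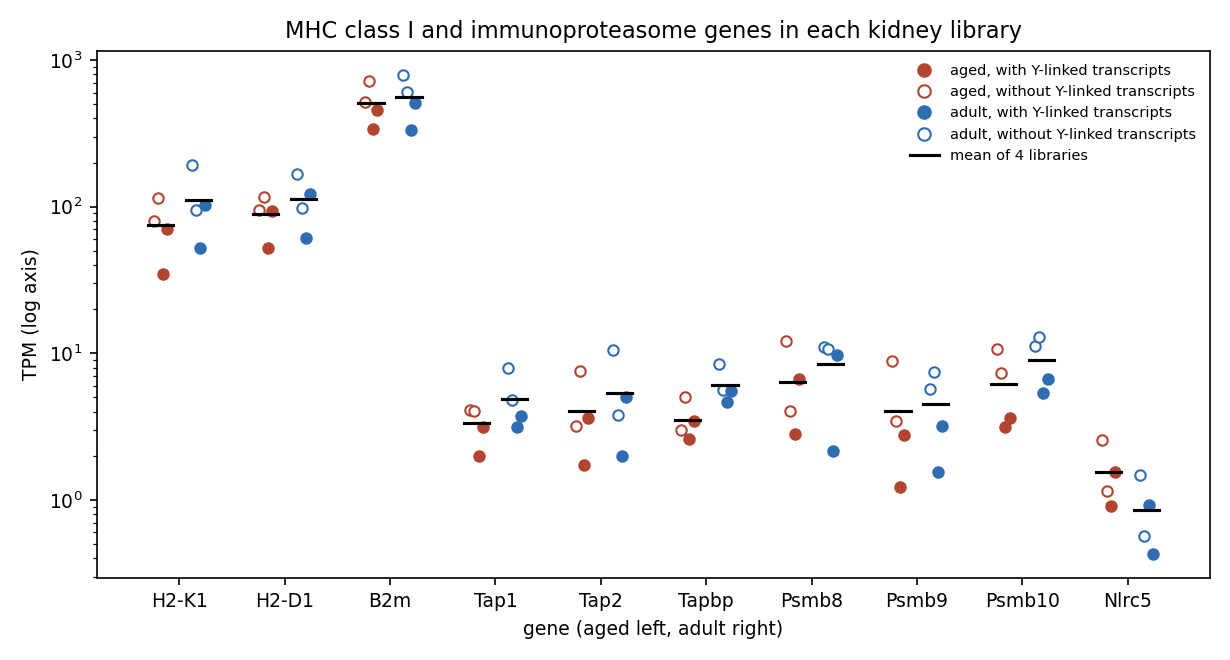
TPM (log axis) of each of the 10 genes in every library, aged libraries in red left of adult libraries in blue, with filled points for libraries with Y-linked transcripts and open points for those without; bars are means of 4 libraries. Aged and adult points overlap for each gene, and B2m lies above all other members.

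B2m, the light chain common to all class I molecules, was the most abundant member. It had 519, 719, 339 and 458 TPM in aged kidneys (replicates 1 to 4), against 796, 607, 336 and 512 TPM in adult kidneys. Replicate 3 was the lowest library in both groups, and the aged and adult ranges nearly coincided. The log2 fold change was -0.13 (SE 0.31, 95% interval -0.81 to 0.55). Quantile normalization turned it to 0.18, and removal of mitochondrial genes to 0.17, so its direction depended on the scale.

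The heavy chain genes H2-K1 and H2-D1 followed B2m in level and came close to each other. H2-K1 had 80.3, 115, 34.8 and 71.0 TPM in aged kidneys, against 193, 94.6, 51.9 and 102 TPM in adult kidneys. Aged replicate 3 was the lowest and adult replicate 1 the highest of the 8, with a 5.55-fold range. Its log2 fold change was -0.52 (SE 0.43, 95% interval -1.45 to 0.42), but leaving out adult replicate 1 gave -0.20, leaving out aged replicate 3 gave -0.19, and leaving out both gave 0.13. H2-D1 had 95.3, 117, 52.4 and 93.6 TPM in aged kidneys, against 167, 97.4, 61.2 and 123 TPM in adult kidneys. The same libraries were highest and lowest, with a 3.18-fold range. Its log2 fold change was -0.29 (SE 0.34). Leaving out adult replicate 1 gave -0.07, leaving out aged replicate 3 gave -0.05, and removing mitochondrial genes gave 0.011.

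Within a library, where no scaling enters, H2-K1 ran at 0.843, 0.980, 0.663 and 0.758 times H2-D1 in aged kidneys, against 1.15, 0.971, 0.848 and 0.834 times in adult kidneys. H2-D1 was the higher of the pair in 7 of 8 libraries, adult replicate 1 being the exception. The heavy chains share sequence: of the 31-base words in their GENCODE M21 transcripts, 22.8% of those of H2-K1 and 26.9% of those of H2-D1 occur in another gene, most often in each other. Reads can therefore move between them, and the split is less certain than the sum. Summed H2-K1 and H2-D1 were 176, 232, 87.2 and 165 TPM in aged kidneys, against 360, 192, 113 and 225 TPM in adult kidneys. B2m stood at 2.95, 3.09, 3.89 and 2.78 times this sum in aged kidneys, against 2.21, 3.16, 2.97 and 2.27 times in adult kidneys. B2m had no 31-base word in common with another gene.

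The peptide-loading members were far lower than the heavy chains they serve. Tapbp, which encodes tapasin, had 3.01, 5.01, 2.59 and 3.44 TPM in aged kidneys, against 8.41, 5.58, 4.69 and 5.55 TPM in adult kidneys. Aged replicate 2, at 5.01 TPM, lay above adult replicate 3, at 4.69 TPM, and the other 3 aged libraries lay below all adult ones. It had the most negative fold change of the members, -0.65 (SE 0.28, 95% interval -1.26 to -0.04), and an unadjusted limma p of 0.0399, the lowest of the members. It did not pass over all genes, 3.39% of which had an unadjusted p under 0.05. It lay between -0.79 and -0.50 when single libraries were left out. Size factors gave -0.56, quantile normalization -0.60 and removal of mitochondrial genes -0.43. Of its 31-base words 26.9% occur in another gene, most of them in the antisense gene Gm19412, and the files do not say whether strand was used in the counting.

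Tap1 and Tap2 encode the chains of the TAP transporter, which work as a pair. Tap1 had 4.11, 4.05, 1.99 and 3.17 TPM in aged kidneys, against 7.99, 4.81, 3.13 and 3.72 TPM in adult kidneys. Adult replicate 1 stood above the other 7 libraries, and the log2 fold change was -0.42 (SE 0.32) with it and -0.19 without it. Tap2 had 3.21, 7.52, 1.72 and 3.64 TPM in aged kidneys, against 10.5, 3.80, 1.98 and 5.06 TPM in adult kidneys. Adult replicate 1 and aged replicate 2 were the highest, and the log2 fold change of -0.28 (SE 0.45) became 0.06 when adult replicate 1 was left out. The ratio of Tap1 to Tap2 within a library was 1.28, 0.538, 1.15 and 0.871 in aged kidneys, against 0.762, 1.26, 1.58 and 0.735 in adult kidneys. In both groups 2 libraries had more Tap1 and 2 had more Tap2. Tap2 shares 14.3% of its 31-base words with other genes, most with Gm15821 on the opposite strand.

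**Figure D2:**
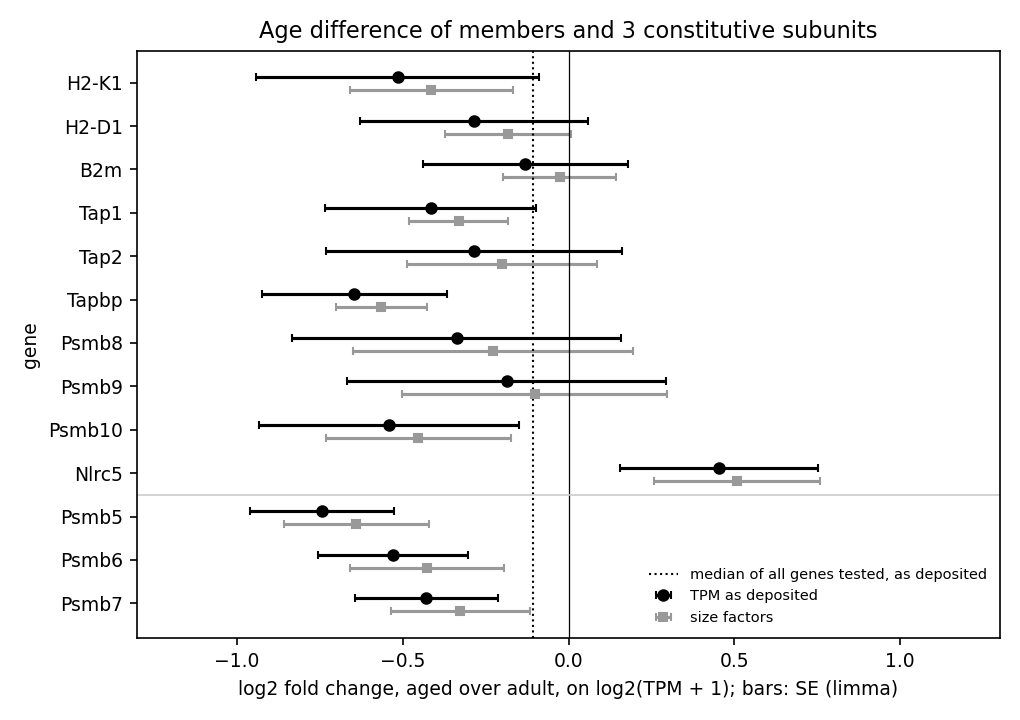
Log2 fold change of aged over adult kidneys on log2(TPM + 1) with its SE (limma, 4 libraries per group) for the 10 members and, below the line, the constitutive subunits, as deposited in black and with size factors in grey; the dotted line is the median of all genes, -0.11. Tapbp has the most negative value among the members, -0.65, and Nlrc5 has a positive one, 0.45.

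The means of the immunoproteasome subunits differed between age groups by less than 1 SD of either group. Psmb8, the inducible chymotrypsin-like subunit (LMP7), had 12.1, 4.02, 2.80 and 6.64 TPM in aged kidneys, against 11.1, 10.8, 2.16 and 9.78 TPM in adult kidneys. Adult replicate 3 stood far below the other adult libraries, and the log2 fold change of -0.34 (SE 0.50) was -0.80 when that library was left out and -0.07 when aged replicate 3 was. Of its 31-base words 13.7% occur in another gene, most in the antisense gene Gm20496. Psmb9 (LMP2) had 8.84, 3.43, 1.23 and 2.75 TPM in aged kidneys, against 5.68, 7.49, 1.56 and 3.22 TPM in adult kidneys. It had the widest range of the members, 7.17-fold, and a log2 fold change of -0.19 (SE 0.48) that depended on single libraries. It was -0.58 in the absence of aged replicate 1, 0.14 in the absence of aged replicate 3, 0.07 in the absence of adult replicate 2, and 0.031 once mitochondrial genes were removed. Psmb10 (MECL-1) had 10.7, 7.30, 3.15 and 3.60 TPM in aged kidneys, against 11.2, 12.9, 5.37 and 6.65 TPM in adult kidneys. Its log2 fold change was -0.54 (SE 0.39), and lay between -0.82 and -0.32 when single libraries were left out. Size factors gave -0.45 and removal of mitochondrial genes -0.30. Psmb9 and Tap1 overlap by 212 bases of exon on opposite strands, and 4.79% of the 31-base words of Psmb9 occur in Tap1.

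Each inducible subunit takes the place of a constitutive one, Psmb5, Psmb6 or Psmb7, which stood higher in every library. Psmb5 had 107, 123, 84.1 and 106 TPM in aged kidneys, against 169, 204, 157 and 173 TPM in adult kidneys. Psmb6 had 212, 204, 136 and 172 TPM in aged kidneys, against 253, 305, 246 and 233 TPM in adult kidneys. Psmb7 had 95.9, 113, 92.8 and 99.7 TPM in aged kidneys, against 149, 161, 116 and 119 TPM in adult kidneys. For these 3 genes every aged library lay below every adult one, as for 2.46% of all genes in either direction. The log2 fold changes were -0.74 (SE 0.22), -0.53 (SE 0.23) and -0.43 (SE 0.22) for Psmb5, Psmb6 and Psmb7, with adjusted p = 1.00 (limma), so none passed over all genes. Removal of mitochondrial genes gave -0.45, -0.23 and -0.13 in the same order, and quantile normalization -0.47, -0.22 and -0.18. Psmb5 shares 71.7% of its 31-base words with other genes, chiefly a pseudogene, which makes its level uncertain.

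As a share of its constitutive counterpart in the same library, inducible RNA was in the low percents. Psmb8 reached 11.3%, 3.25%, 3.33% and 6.28% of Psmb5 in aged kidneys, against 6.59%, 5.28%, 1.38% and 5.65% in adult kidneys. Psmb9 reached 4.17%, 1.68%, 0.909% and 1.60% of Psmb6 in aged kidneys, against 2.24%, 2.45%, 0.636% and 1.38% in adult kidneys. Psmb10 reached 11.2%, 6.48%, 3.39% and 3.61% of Psmb7 in aged kidneys, against 7.55%, 7.99%, 4.63% and 5.57% in adult kidneys. Aged replicate 1 had the highest share for all 3 pairs, and the age groups overlapped for each. The mean log2 ratio was higher in aged kidneys by 0.38 for Psmb8/Psmb5 (SE 0.68) and by 0.27 for Psmb9/Psmb6 (SE 0.64), and for Psmb10/Psmb7 it was -0.20 (SE 0.44). Exact two-sided permutation p-values over the 70 assignments were 0.571, 0.686 and 0.657 (0.686 for each after adjustment over the 3 ratios), where the smallest possible is 0.0286. These assignments mixed libraries with and without Y-linked transcripts, so any difference between those libraries adds to the spread. Leaving out adult replicate 3 gave -0.14 for both Psmb8/Psmb5 and Psmb9/Psmb6. Leaving out aged replicate 1 also gave -0.14 for Psmb9/Psmb6, and leaving out aged replicate 3 gave 0.024 for Psmb10/Psmb7.

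**Figure D3:**
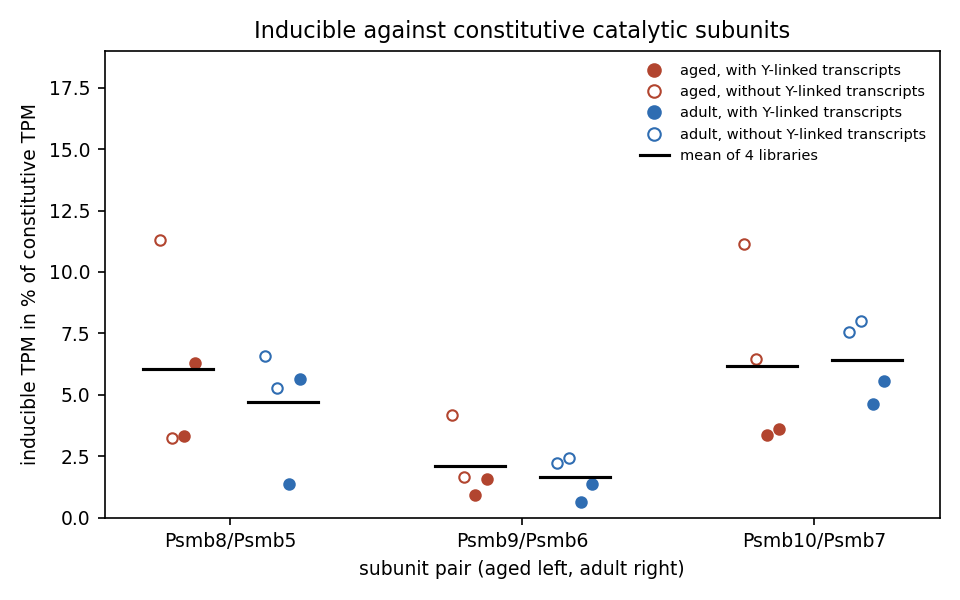
TPM of each inducible subunit in percent of its constitutive counterpart, per library, aged in red left of adult in blue, filled for libraries with Y-linked transcripts and open for those without; bars are means of 4 libraries. Aged and adult points overlap for each pair, and open points lie above filled ones within Psmb9/Psmb6 and Psmb10/Psmb7.

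Nlrc5, the class I transactivator, was the least abundant member. It had 2.57, 1.15, 0.911 and 1.55 TPM in aged kidneys, against 1.47, 0.563, 0.925 and 0.428 TPM in adult kidneys. The highest library was aged replicate 1 and the lowest adult replicate 4, and aged replicates 2 and 3 lay below adult replicate 1. Its log2 fold change was 0.45 (SE 0.30, 95% interval -0.20 to 1.11), and lay between 0.34 and 0.60 with each of the other 7 libraries left out in turn. At this level the added 1 of the log scale shrinks the difference, and with a pseudocount of 0.1 the value was 0.83. With aged replicate 1 left out its mean was under 1 TPM and it was not tested. The other 9 members had negative values in the same fit, and neither direction passed.

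By mean level over the 8 libraries the order was B2m, H2-D1, H2-K1, Psmb10, Psmb8, Tapbp, Tap2, Psmb9, Tap1 and Nlrc5. B2m exceeded H2-D1, H2-K1 exceeded Psmb10, and Tap1 exceeded Nlrc5 in 8 of 8 libraries. From Psmb10 down to Tap1, neighbours changed places: Psmb10 was above Psmb8 in 5 of 8 libraries, Psmb8 above Tapbp in 6, Tapbp above Tap2 in 4, Tap2 above Psmb9 in 6 and Psmb9 above Tap1 in 2. Among the 11796 genes tested the mean TPM of B2m ranked 199, that of H2-D1 821 and that of H2-K1 895, while Nlrc5 ranked 11422.

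The 10 genes did not share 1 profile. Adult replicate 1 was the highest library for H2-K1, H2-D1, B2m, Tap1, Tap2 and Tapbp. Aged replicate 1 was highest for Psmb8, Psmb9 and Nlrc5, and adult replicate 2 for Psmb10. Aged replicate 3 was lowest for 7 members, adult replicate 3 for B2m and Psmb8, and adult replicate 4 for Nlrc5. Aged replicate 2 had z-scores of 0.63 for H2-K1, 1.07 for B2m and 1.05 for Tap2, but -0.69 for Psmb8 and -0.10 for Psmb9. Aged replicate 1 had 1.00 and 1.39 for Psmb8 and Psmb9, but -0.06 for H2-K1 and -1.03 for Tapbp. In aged replicate 1 the 3 inducible subunits lay above the 6 loading and presenting genes, Psmb10 being at 0.87 and Tap1, the next below, at 0.14. In aged replicate 2 they did not lie apart, with Psmb10 at 0.11, Tap1 at 0.10 and Tapbp at 0.26.

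**Figure D4:**
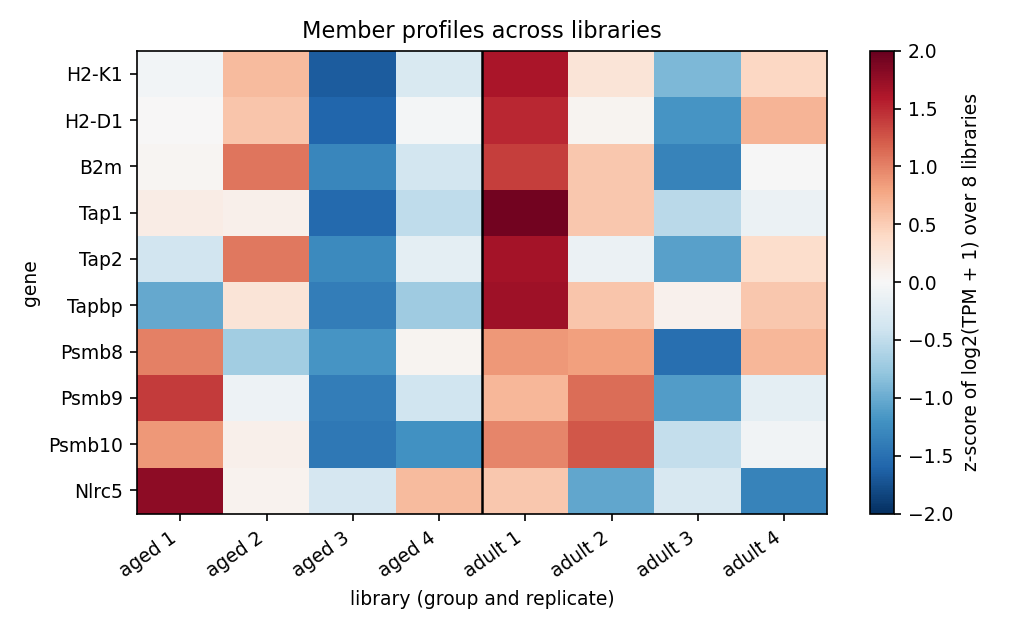
Z-scores of log2(TPM + 1) over the 8 libraries for each member, aged libraries left of adult ones, red above and blue below a gene's mean. Adult replicate 1 is red in all rows and aged replicate 3 is blue in all rows. In aged replicate 1 the inducible subunits and Nlrc5 are red, while the other members are pale or blue.

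The libraries with the highest and lowest member levels were also those with the highest and lowest levels over all genes. The median deviation of the 10 members from their means was 0.04, 0.09, -0.88 and -0.19 on the log2 scale in aged replicates 1 to 4, against 0.74, 0.25, -0.62 and 0.12 in adult ones. The same median over all genes tested was -0.02, 0.32, -0.46 and -0.04 in aged replicates, against 0.46, 0.16, -0.37 and -0.06 in adult ones. Adult replicate 1 was highest and aged replicate 3 lowest by both measures. The protein-coding mitochondrial genes, which take their share from the same fixed total, held 32.9%, 26.8%, 46.9% and 37.1% of the TPM scale in aged kidneys, against 20.9%, 19.6%, 24.5% and 26.1% in adult kidneys. Every aged library had a larger mitochondrial share than any adult one, and aged replicate 3 had the largest. The part of this share in the members' levels and age differences was not tested beyond the rescaled values given above.

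**Figure D5:**
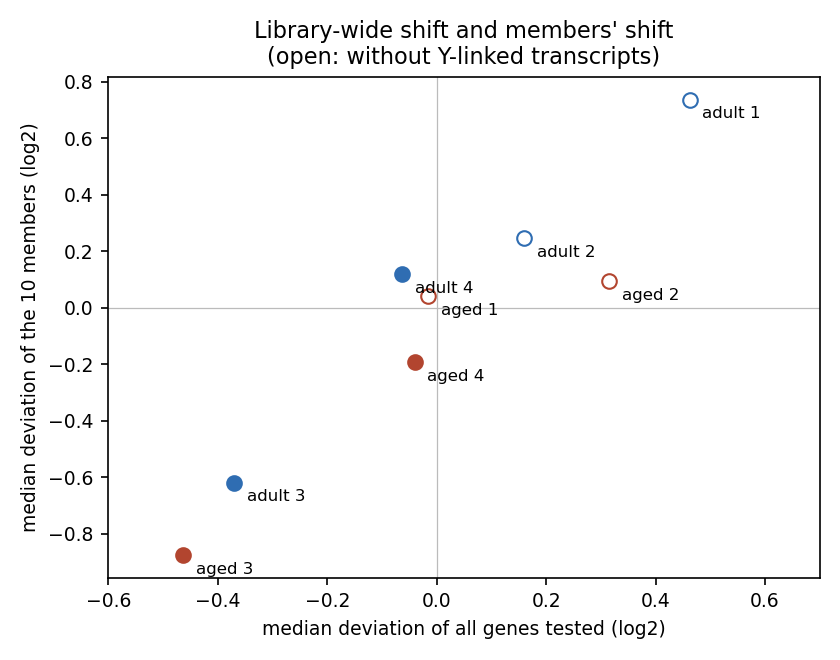
Median log2 deviation of the 10 members from their means against that of all 11796 genes tested, 1 point per library, aged in red and adult in blue, filled for libraries with Y-linked transcripts. Aged replicate 3 (-0.46, -0.88) and adult replicate 1 (0.46, 0.74) lie at opposite corners.

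The 4 libraries with Y-linked transcripts had lower levels of all 10 members than the 4 without, in the fit with this class beside age, as did 89.2% of all genes. Psmb10 and Psmb9 passed, lower with Y-linked transcripts by log2 coefficients of -1.04 (SE 0.20, limma adjusted p = 0.0146) and -1.19 (SE 0.31, adjusted p = 0.0380). That is 2 of 10 members called lower, where 11.3% of all genes were, and 0 of 10 called higher, where 1.13% were. Psmb10 had 3.15 to 6.65 TPM with and 7.30 to 12.9 TPM without Y-linked transcripts, and Psmb9 had 1.23 to 3.22 TPM with and 3.43 to 8.84 TPM without them. B2m and Tap1 did not overlap between the classes either, which makes 4 of 10, against 21.3% of all genes that were lower with no overlap. B2m had 336 to 512 TPM with and 519 to 796 TPM without, and a log2 coefficient of -0.69 (limma adjusted p = 0.0585).

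The whole libraries differed as well: the median coefficient of all genes was -0.46 and that of the members -0.73. With size factors the member median was -0.25, against 0.01 for all genes, 8 of 10 members were negative, as were 48.1% of all genes, and none passed, where 2.46% of all genes were called lower. Psmb9 was then at -0.78 (limma adjusted p = 0.210) and Psmb10 at -0.55 (adjusted p = 0.206). With mitochondrial genes removed Psmb10 passed (-0.91, limma adjusted p = 0.0351) and Psmb9 did not (-1.13, adjusted p = 0.0883). The ratios within a library, which no scaling touches, also separated the classes for these subunits. Psmb9 was 0.636% to 1.60% of Psmb6 with Y-linked transcripts and 1.68% to 4.17% without, and Psmb10 was 3.39% to 5.57% of Psmb7 with and 6.48% to 11.2% without. For Psmb8/Psmb5 the ranges overlapped, 1.38% to 6.28% with and 3.25% to 11.3% without. These ratio ranges by class were looked at after the values were seen and were not tested. Some leukocyte sums separated the classes too. Pan-leukocyte markers had 39.5 to 70.1 TPM with and 83.5 to 133 TPM without, and macrophage and dendritic markers 66.5 to 136 and 158 to 324 TPM. Class II genes had 133 to 339 TPM with and 357 to 685 TPM without. Sums of T and NK cell, B and plasma cell, and endothelial markers overlapped between the classes. The part of cell content in these ratios was not tested.

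In the libraries with Y-linked transcripts the 9 members tested were negative with a median of -0.30, while 54.7% of all genes were negative with a median of -0.04. In those without, 9 of 10 members were negative with a median of -0.36, while 70.7% of all genes were negative with a median of -0.17. No member's age difference differed between the classes by the interaction term (limma adjusted p = 1.00 for each), where 0.0339% of all genes did. With the class as a covariate the lowest adjusted p for age among the members was 0.462, for Tapbp.

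Other class I heavy chain genes did not pass either. Of 23 listed, 20 had a row, 10 were tested, 0 passed, and 8 were negative with a median of -0.30, or 5 with a median of -0.04 once mitochondrial genes were removed. H2-T23, which encodes Qa-1, averaged 58.6 ± 15.3 TPM in aged and 82.4 ± 24.1 TPM in adult kidneys (SD, n = 4 each), with a log2 fold change of -0.47 (SE 0.29). H2-T22, a nonclassical heavy chain, averaged 60.5 ± 7.58 TPM in aged and 73.6 ± 5.27 TPM in adult kidneys (-0.28, SE 0.21), but 0.012 with mitochondrial genes removed. H2-Q7, a Qa-2 gene with near-identical neighbours that can take its reads, averaged 16.5 ± 6.67 TPM in aged and 22.1 ± 6.72 TPM in adult kidneys. H2-T3, H2-M9, H2-M10.1 and H2-M11 were listed at 0 in all libraries. Among 6 tested class I-like molecules 5 were negative and 0 passed, with Hfe, which regulates iron uptake, at 9.82 ± 6.56 TPM in aged and 13.1 ± 4.39 TPM in adult kidneys.

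The rest of the peptide supply line did not pass either. All 13 genes of a list of other peptide loading and endoplasmic reticulum genes were tested, 7 were negative, and the median was -0.03, above that of all genes. That list also held B3gat3, a glycosyltransferase gene that does not belong to peptide loading, at -0.43 (SE 0.30). The chaperone gene Hspa5 averaged 204 ± 89.4 TPM in aged and 165 ± 72.8 TPM in adult kidneys. Of 9 proteasome activator and assembly genes 7 were negative with a median of -0.39, or -0.30 with size factors and -0.11 with mitochondrial genes removed. Pomp, the assembly chaperone, averaged 49.9 ± 10.6 TPM in aged and 69.4 ± 9.61 TPM in adult kidneys (log2 fold change -0.48, SE 0.24). Psme2, the PA28 beta subunit that interferon induces, averaged 95.9 ± 19.3 TPM in aged and 131 ± 34.9 TPM in adult kidneys (-0.44, SE 0.26). Both missed the threshold over all genes.

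Upstream regulators and other interferon targets showed no call. Of 13 listed transactivation genes 12 were tested, 6 were negative and the median was 0.13. Rfxap, a subunit of the RFX complex that binds the X box, averaged 5.30 ± 2.62 TPM in aged and 9.82 ± 4.00 TPM in adult kidneys (-0.76, SE 0.39). Of 14 tested interferon signalling genes 10 were negative with a median of -0.15. Irf7, an interferon regulatory factor, averaged 11.3 ± 2.86 TPM in aged and 16.5 ± 6.15 TPM in adult kidneys. Of 24 tested interferon response genes 18 were negative with a median of -0.18, or -0.09 with size factors and 0.06 with mitochondrial genes removed. Ifi27 averaged 60.5 ± 25.8 TPM in aged and 97.5 ± 33.3 TPM in adult kidneys, and Bst2, which tethers budding virus, 25.5 ± 11.6 TPM in aged and 38.3 ± 12.01 TPM in adult kidneys.

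Leukocytes carry much class I. Pan-leukocyte markers summed to 39.5 to 108 TPM in aged and 67.9 to 133 TPM in adult kidneys, with 9 of 9 having a row and 8 tested, of which 7 were negative and 0 passed, or 4 negative once mitochondrial genes were removed. T and NK cell markers summed to 7.45 to 16.1 TPM in aged and 10.7 to 18.2 TPM in adult kidneys, with 5 of 14 tested, 2 negative, 3 positive, a median log2 fold change of 0.05 and 0 passed. Of the negative ones, Nkg7, a cytotoxic granule gene, averaged 0.566 ± 0.417 TPM in aged and 1.75 ± 0.485 TPM in adult kidneys. Macrophage and dendritic markers summed to 66.5 to 324 TPM in aged and 130 to 240 TPM in adult kidneys, B and plasma cell markers to 184 to 610 TPM in aged and 55.4 to 248 TPM in adult kidneys, and endothelial markers to 185 to 245 TPM in aged and 121 to 296 TPM in adult kidneys. Of those tested, 5 of 7 macrophage and dendritic genes were negative, but only 1 of 6 B and plasma cell genes and 2 of 9 endothelial genes, and 0 passed. Class II antigen presentation genes summed to 133 to 445 TPM in aged and 196 to 685 TPM in adult kidneys, with 5 tested, 5 negative and 0 passed. Pan-leukocyte and class II sums were highest in adult replicate 1 and lowest in aged replicate 3, as were most loading and presenting members, and the part of these cells in the members' levels was not tested.

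By profile over the 8 libraries, the genes most like the mean of the members were Egln2, Tubb5, Ankrd54, H2-Ab1 and Ajuba, with root mean square differences of z-scores between 0.119 and 0.154. H2-Ab1, a class II beta chain gene, averaged 50.5 ± 22.9 TPM in aged and 85.6 ± 49.96 TPM in adult kidneys. Egln2, a prolyl hydroxylase gene, averaged 17.2 TPM in aged and 20.2 TPM in adult kidneys. Measured against the same mean profile, H2-K1 lay at 0.253 and Nlrc5 at 1.15, and 84 genes lay nearer to it than H2-K1 did. Each member is part of that mean, so its distance is not independent of it. The genes of most similar profile were all highest in adult replicate 1 and lowest in aged replicate 3, as was the median of all genes. Likeness beyond that shift of whole libraries was not tested.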

How the data were processed

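Kidney RNA of 4 aged and 4 adult mice was sequenced after pull-down of polyadenylated RNA with a stranded kit, per the labels' protocols. The authors deposited 1 table of TPM, and kallisto, DESeq2 and GRCm38 are listed, without versions or roles, per the submitters' processing notes. No source used here gives the annotation or the use of strand. Columns were matched to samples by title. Identifiers were matched to symbols for 29732 of 30153 rows (98.6%), and 7 rows that shared a symbol were summed.

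Genes with a mean of at least 1 TPM were tested with limma 3.58.1 (R 4.3.3, intensity trend) on log2(TPM + 1), with Benjamini-Hochberg adjustment over all genes, since TPM are not counts. The test was also run on simulated data with independent noise for each gene. That simulation had no shift of whole libraries and no class of Y-linked transcripts, so it cannot show how the test does with these. Ratios of subunits were compared by exact permutation. The class of Y-linked transcripts was set at a summed 10 TPM. Promoter windows came from RefSeq, gene positions and transcripts from GENCODE M21 (both GRCm38).

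The members, lists and tests were chosen with earlier results of these data known. Named genes are all members, up to 3 genes with the smallest p of each other list, the 5 genes of most similar profile and the 3 constitutive subunits. Same-numbered replicates were not taken as pairs, since their deviations correlated at 0.04, 0.18, 0.49 and 0.42 and not all exceeded 0.1. Alternatives were pseudocounts, filters, scalings, limma settings, a replicate block, the class covariate and each library left out. Omission of adult replicate 1 with aged replicate 3, fits within each class, and other scalings of the class fit were added after seeing the data.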

Additional observations from a re-analysis of the deposited data

Results flagged for a closer look

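Chance flags about 1 group in 20 by the criterion used, and 4 of 74 groups of 4 libraries were flagged, each because 1 library stood apart from the other 3. Adult replicate 3 had 2.16 TPM of Psmb8, against 9.78 to 11.1 TPM in the other adult libraries (gap over range 0.850). Aged replicate 1 had the highest T and NK cell sum, 16.1 TPM against 7.45 to 8.48 TPM (0.881). It also had the highest fibroblast and smooth muscle sum, 59.8 TPM against 25.6 to 27.0 TPM (0.959). Aged replicate 3 had the lowest endothelial sum of the aged libraries, 185 TPM against 239 to 245 TPM (0.898).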

How the results depend on the processing

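No member passed between aged and adult kidneys under any alternative run. The count of genes called for age was 0 to 2 without a single library and 1 without adult replicate 1 and aged replicate 3 together. It was 3 within the libraries without and 60 within those with Y-linked transcripts, and 0 in the other runs. The members' median lay between -0.58 and -0.06 without each single library and was 0.15 without adult replicate 1 and aged replicate 3, where the median of all genes was 0.19 and 30.9% of all genes were negative. The median of all genes was also above 0 without aged replicate 3 (0.035) and without adult replicate 1 (0.042). The replicate block left 0 genes called and the median at -0.31, with 916 genes at an unadjusted p under 0.05 against 400. No age call of a named gene or subunit ratio changed under the block. The class of Y-linked transcripts follows the replicate numbers, so its calls were not run with the block.

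Signs turned as follows, and the cause was not tested. With mitochondrial genes removed, which put the median of all genes at 0.15, H2-D1 was 0.011, B2m 0.17, Psmb9 0.031, H2-T22 0.012, Egln2 0.088 and Tubb5 0.042, and with quantile normalization B2m was 0.18. Without adult replicate 1 and aged replicate 3, H2-K1 was 0.13, H2-D1 0.17, B2m 0.24, Tap2 0.31, Psmb8 0.11, Psmb9 0.28, H2-Q7 0.012, H2-Ab1 0.012, Egln2 0.21, Tubb5 0.28, Ankrd54 0.19 and Ajuba 0.16. Without each single library, B2m lay between -0.36 and 0.06, Tap2 between -0.59 and 0.06, Psmb9 between -0.58 and 0.14, Egln2 between -0.43 and 0.01, Tubb5 between -0.45 and 0.03, Psmb8/Psmb5 between -0.14 and 0.61, Psmb9/Psmb6 between -0.14 and 0.59 and Psmb10/Psmb7 between -0.55 and 0.024. The lowest values with a single library left out, all in the absence of adult replicate 3, were -0.82 for H2-K1, -0.54 for H2-D1, -0.80 for Psmb8, -0.64 for H2-Q7, -1.07 for H2-Ab1 and -0.86 for Ajuba. Depth is unknown, so no limit from counting can be given, and low members such as Nlrc5 depend most on the pseudocount.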
